A study of Mus musculus with 24 samples.

Results

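Sperm head shaping genes were followed in 2 fractions of mouse male germ cells. They are 10 genes of the nuclear envelope, of the manchette and of the acrosome, taken by their gene symbols (GENCODE M21) from a table of 55536 genes. All 10 were measured well enough to be tested, with 165 to 25224 counts in each library compared. The nuclear envelope genes are Sun3, Sun5, Spag4 and Dpy19l2, the manchette genes are Hook1 and Rimbp3, and the Golgi and acrosome genes are Spata16, Pick1, Gopc and Agfg1.

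After meiosis the round nucleus of a spermatid is condensed and drawn out into the head of the sperm. The manchette, a transient skirt of microtubules, is tied to the nucleus by SUN domain proteins of the nuclear envelope, while vesicles from the Golgi fuse into the acrosome that caps the nucleus. Loss of several of these genes gives bent, detached or round heads, the last of which lack an acrosome and are called globozoospermia.

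Poly(A) RNA had been sequenced from pachytene/diplotene spermatocytes and from round spermatids, each enriched on an albumin gradient from the testes of 2 to 5 mice aged 10 to 15 weeks on a C57BL/6J background. The mice were Ago413+/+ (wild-type), Ago413+/- (heterozygous) or Ago413-/- (null) for a germline deletion on chromosome 4 that removes the Argonaute gene Ago1 whole and its neighbours Ago3 and Ago4 in part. The deletion was carried by every cell of the animal. Spermatocyte libraries numbered 4 wild-type, 3 heterozygous and 3 null, and round spermatid libraries 3, 4 and 4. A further 3 libraries, wild-type spermatocyte replicate 3, heterozygous spermatocyte replicate 4 and wild-type round spermatid replicate 3, are called outliers by the labels and were left out of the comparisons. Each library is a pool of mice at a purity above 70% by the labels, so p-values measure the spread between such pools, and fewer cells of a type cannot be told apart from less RNA per cell. Whether spermatocyte and round spermatid libraries came from the same mice is not stated in the sources used here.

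Libraries held 12825105 to 29749058 counts. Ago1 had 0 counts in all 7 null libraries, which allows up to 0.162 CPM in the shallowest of them, against 2.82 to 4.49 CPM in wild-type libraries. CPM are read counts scaled to a common library size. The fractions were checked against marker genes. Summed over 8 spermatocyte markers such as Sycp3, wild-type spermatocyte libraries stood at 832 to 1815 CPM and wild-type round spermatid libraries at 529 to 672 CPM. The 6 markers of elongating spermatids, such as Prm1, summed to 3722 to 8802 CPM and 23517 to 33965 CPM. The authors use Prm1 as a marker of round as well as elongating spermatids, so this sum does not measure elongating spermatids alone. The 8 markers of round spermatids, such as Acrv1, separated the wild-type fractions less, with 792 to 1430 CPM in spermatocytes and 1007 to 1532 CPM in round spermatids. Sertoli, Leydig and macrophage markers summed to at most 69.4 CPM in any library compared, and no marker of these lists was at 0 in all libraries of a group. Macrophage markers moved with the fraction, from 7.47 to 12.5 CPM in wild-type spermatocytes to 30.1 to 47.8 CPM in wild-type round spermatids, with 4 of 6 called higher in each genotype. Spermatogonia markers stood at 33.0 to 43.4 CPM and 55.9 to 63.5 CPM in these groups, with 6 of 6 positive (median 0.55) and 2 called higher, and between the null fractions 5 of 6 were positive with 1 called. The part of both lists in the differences between fractions was not tested. The left-out wild-type round spermatid replicate 3 had 5533 CPM of elongating spermatid markers, within the range of the spermatocytes.

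The members lie on 9 chromosomes, and only Sun5 and Spag4 share one. Hook1 is on chromosome 4, 30.3 Mb from Ago3. Pick1 (chromosome 15, 79229173 to 79249484) shares 1222 bp of exon, 18.6% of its exon length, with the same-strand gene Gm49486, so its counts are uncertain. Sun3 shares 9.47% of its exon length with the opposite-strand Gm11992 and Hook1 3.81% with 9530080O11Rik, and the strand setting of the counting is not given in the sources used here. The other members shared at most 1.12% of their 31-base words with another gene.

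Promoter windows were read from RefSeq for 9 members (11 windows, GRCm38.p6), and the missing entry is Rimbp3. Each window ran from 250 bases before a start to 50 bases after it. The windows were searched on both strands for the cyclic AMP response element TGACGTCA, which CREM-type activators of spermatids bind, for its half-site TGACG, and for GTTGCC, a half-site of the X-box read by RFX factors. Spag4 was the only member with the full element, which 1.79% of all 32851 windows hold. Half-sites were found in 4 of the 9 members, Spag4, Dpy19l2, Gopc and Pick1, against 20.8% of all windows, and every full element holds a half-site on each strand. The shares given here are of single windows, and the 9 members have 11 windows. GTTGCC was found in Pick1 only, against 12.5% of all windows. The stretches before the annotated gene start are printed for the 4 members that differed between the wild-type fractions below, with the half-site in capitals. They are chr2:156064963-156065174 on the plus strand for Spag4, chr2:153871085-153871334 on the minus strand for Sun5, chr4:95967129-95967239 on the plus strand for Hook1 and chr10:52382125-52382374 on the minus strand for Gopc. The matches of Spag4 lay in the rest of its window, after the gene start of GENCODE, and are not shown.
Spag4: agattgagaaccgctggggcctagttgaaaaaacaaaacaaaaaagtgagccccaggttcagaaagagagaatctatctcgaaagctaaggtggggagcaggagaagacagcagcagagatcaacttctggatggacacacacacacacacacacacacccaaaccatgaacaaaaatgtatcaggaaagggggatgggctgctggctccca
Sun5: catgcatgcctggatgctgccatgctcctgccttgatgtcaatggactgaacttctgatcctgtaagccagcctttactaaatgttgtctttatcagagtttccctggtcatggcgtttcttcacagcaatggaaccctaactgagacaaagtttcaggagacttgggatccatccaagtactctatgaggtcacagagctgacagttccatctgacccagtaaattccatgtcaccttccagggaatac
Hook1: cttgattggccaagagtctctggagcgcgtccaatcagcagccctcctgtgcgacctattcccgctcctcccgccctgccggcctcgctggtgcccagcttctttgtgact
Gopc: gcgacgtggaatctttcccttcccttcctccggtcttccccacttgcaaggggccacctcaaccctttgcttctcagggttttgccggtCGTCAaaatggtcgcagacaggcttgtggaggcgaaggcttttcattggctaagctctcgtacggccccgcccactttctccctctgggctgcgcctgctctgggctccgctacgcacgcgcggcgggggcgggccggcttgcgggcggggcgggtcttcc

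Levels were first set in order per length, as CPM per kilobase (kb) of annotated exon. The acrosome gene Spata16, whose product sits in Golgi and proacrosomal vesicles, was the highest member in wild-type spermatocytes at 237 ± 7.55 CPM per kb (SD, n = 4). Rimbp3, which encodes a manchette protein that binds Hook1, followed at 141 ± 5.92 CPM per kb (SD, n = 4). Both stood apart from the next member without overlap of libraries, Dpy19l2 at 88.8 ± 6.24 CPM per kb (SD, n = 4). Sun5, Sun3, Hook1 and Spag4 came next, between 51.9 and 36.2 CPM per kb, and each overlapped its neighbour in the order. Agfg1 stood apart at 22.6 ± 1.24 CPM per kb (SD, n = 4). Pick1 and Gopc, at 3.65 and 3.48 CPM per kb, were the lowest and overlapped. In wild-type round spermatids Spata16 (189.6 ± 5.02 CPM per kb, SD, n = 3) and Rimbp3 (169.7 ± 7.86 CPM per kb) again came first, and Gopc (1.22 ± 0.173 CPM per kb) now lay below Pick1 (3.16 ± 0.659 CPM per kb) without overlap. Taking the longest transcript in place of all exons, Gopc stood at 6.52 CPM per kb in spermatocytes and 2.29 CPM per kb in round spermatids, still the lowest member in both.

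**Figure D1:**
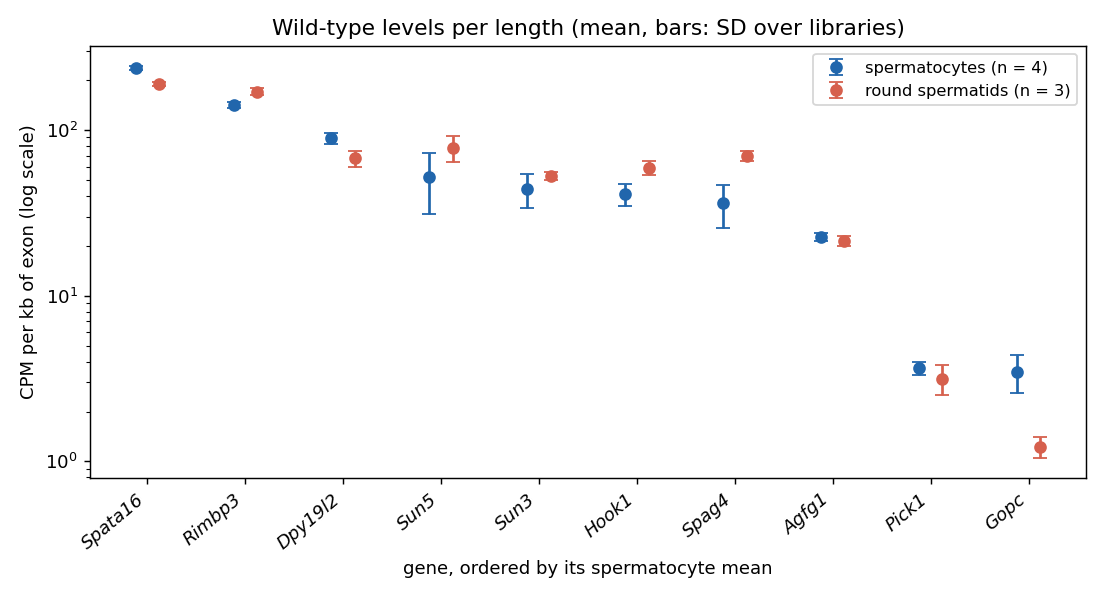
Levels of the 10 members in wild-type libraries, in CPM per kb of exon on a log axis; points are means and bars are SD over 4 spermatocyte and 3 round spermatid libraries. Spata16 and Rimbp3 lie highest in both fractions, Pick1 and Gopc lowest.

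The first comparison asks how the genes differ between wild-type round spermatids and spermatocytes. With edgeR, 4 of 10 members were called (Benjamini-Hochberg adjusted p under 0.05 and a log2 fold change beyond 0.5 in either direction), against 24.2% of the 20404 genes tested. Spag4, Sun5 and Hook1 were higher in round spermatids, where 12.7% of all genes were, and Gopc was lower, where 11.4% were. DESeq2 called all of them but Hook1, whose log2 fold change it put just under the size threshold, and 26.7% of all genes. The members' median log2 fold change was 0.09, and that of all genes tested 0.02.

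Spag4 encodes a SUN domain protein that ties the manchette to the nucleus. Its level was 162, 181, 117 and 238 CPM in the wild-type spermatocyte libraries (replicates 1, 2, 4 and 5) and 332, 318 and 363 CPM in the wild-type round spermatid libraries (replicates 1, 2 and 4). Every round spermatid library lay above every spermatocyte library. The log2 fold change was 0.95 (SE 0.19, adjusted p = 0.00121 with edgeR), and leaving out any single library kept it between 0.80 and 1.14 with the call.

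Sun5, which is needed to hold the tail to the head, had 49.4, 54.2, 50.04 and 102 CPM in wild-type spermatocytes and 75.8, 104 and 106 CPM in wild-type round spermatids. The groups overlapped because of spermatocyte replicate 5, which lay within the round spermatid range. The log2 fold change was 0.58 (SE 0.21, adjusted p = 0.046 with edgeR). The call was lost without spermatocyte replicate 1, 2 or 4 or round spermatid replicate 2 or 4 (adjusted p = 0.114 to 0.159 with edgeR), and without spermatocyte replicate 5 the log2 fold change was 0.90.

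Hook1, a linker of the manchette whose mutation gives abnormally shaped heads, had 304, 367, 292 and 399.6 CPM in wild-type spermatocytes and 445, 488 and 538 CPM in wild-type round spermatids. These groups did not overlap. The log2 fold change was 0.53 (SE 0.18, adjusted p = 0.038 with edgeR) and lost its call without spermatocyte replicate 1 or 4 or round spermatid replicate 2 or 4 (adjusted p = 0.0878 to 0.138 with edgeR).

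Gopc encodes a Golgi protein without which the acrosome does not form. It had 43.0, 40.2, 45.4 and 23.96 CPM in wild-type spermatocytes and 14.6, 11.2 and 14.4 CPM in wild-type round spermatids. All round spermatid libraries were lower than all spermatocyte libraries, and spermatocyte replicate 5 was the nearest to them. Gopc fell by 1.51 on the log2 scale (SE 0.30, adjusted p = 0.00121 with edgeR), and the call was kept in each of 7 fits that left out 1 library.

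The remaining 6 members were not called. Dpy19l2, which encodes an inner nuclear membrane protein that anchors the acrosome, had 278 to 328 CPM in wild-type spermatocytes and 204 to 254 CPM in wild-type round spermatids, without overlap. Its log2 fold change of -0.40 (SE 0.12, adjusted p = 0.0165 with edgeR) passed the p-value but not the size threshold. The same held for Spata16, with 484 to 520.3 CPM against 394 to 413 CPM and a log2 fold change of -0.32 (SE 0.11, adjusted p = 0.0344 with edgeR). Rimbp3 had 726 to 800.1 CPM in spermatocytes and 865 to 945 CPM in round spermatids, also without overlap, and a log2 fold change of 0.27 (SE 0.16, adjusted p = 0.208 with edgeR). Groups without overlap were thus found for 3 members higher and 3 lower, where 33.7% of all genes tested had them in either direction. Sun3 (0.26, SE 0.18), Pick1 (-0.21, SE 0.21) and Agfg1 (-0.08, SE 0.11), the last a docking factor for acrosomal vesicles, had overlapping groups.

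The count of 4 called members became 2, Spag4 and Gopc, without round spermatid replicate 2 (17.5% of all genes called) or 4 (18%) and without spermatocyte replicate 1 (19.5%) or 4 (16.7%). It was also 2 with the size factors of DESeq2 in edgeR (24.6%). It was 4 with no filter on low counts (12.6% of all genes) and 4 with the replicate number as a block (29.5%). With the 3 libraries called outliers added back, neither any member nor any other gene was called between the wild-type fractions, and Spag4 and Gopc stood at log2 fold changes of 0.67 and -1.28 (adjusted p = 0.063 with edgeR in both cases). The left-out wild-type spermatocyte replicate 3 had 281 CPM of Spag4 and 14.1 CPM of Gopc, and the left-out wild-type round spermatid replicate 3 had 234 CPM of Spag4 and 14.9 CPM of Gopc.

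In heterozygous libraries 1 member, Hook1, was called between the fractions, against 8.89% of all genes tested, and DESeq2 called the same 1 member and 11.2% of all genes. It had 433, 421 and 289.9 CPM in spermatocytes and 853, 503, 579 and 853 CPM in round spermatids. Its log2 fold change was 0.87 (SE 0.19, adjusted p = 0.00515 with edgeR). Hook1, Spag4 and Rimbp3 had groups without overlap, all higher in round spermatids. The share of all genes without overlap is not given for this comparison. Spag4 (0.55, SE 0.19, adjusted p = 0.0763 with edgeR) and Gopc (-0.66, SE 0.29, adjusted p = 0.164 with edgeR) had the signs of the wild type. Without spermatocyte replicate 2, Rimbp3 (0.55) and Pick1 (-0.78) were called as well (11.5% of all genes), and without round spermatid replicate 2, Spag4 was (0.66, 11.1% of all genes). With the outliers added back Hook1 was at 0.65 and not called (adjusted p = 0.0967 with edgeR), and no gene was. Of the markers, 0 of 8 spermatocyte markers were called in this comparison (median -0.71), against 6 of 8 lower in the wild type (median -1.62). Round spermatid markers had a median of 0.01 (4 of 8 positive), and Leydig markers were positive in 0 of 5 cases (median -1.51) with 1 called lower. Their part in the members' values was not tested.

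In null libraries Spag4 and Hook1 were called, 2 of 10 against 17.1% of all genes tested. DESeq2 called these 2 and Pick1, against 19.9% of all genes. Spag4 had 288, 245 and 246 CPM in null spermatocytes and 468, 460.4, 366 and 370.1 CPM in null round spermatids, without overlap, at a log2 fold change of 0.68 (SE 0.19, adjusted p = 0.0175 with edgeR). The call was lost without spermatocyte replicate 2 or 3 or round spermatid replicate 1 or 2 (adjusted p = 0.0519 to 0.0964 with edgeR). Hook1 had 569, 422 and 427 CPM in null spermatocytes and 722, 641, 712 and 745 CPM in null round spermatids, also without overlap. Its log2 fold change of 0.58 (SE 0.19, adjusted p = 0.0351 with edgeR) lost the call without spermatocyte replicate 2 or 3 or round spermatid replicate 1, 3 or 4 (adjusted p = 0.0591 to 0.172 with edgeR). Of the members that were not called, Pick1 was at 25.2 to 30.6 CPM in null spermatocytes and 17.8 to 18.6 CPM in null round spermatids (-0.56, SE 0.20, adjusted p = 0.0582 with edgeR). Dpy19l2 was at 267 to 339.6 CPM against 226 to 254 CPM (-0.34, SE 0.12, adjusted p = 0.0503 with edgeR) and Spata16 at 420.4 to 530.2 CPM against 375 to 404 CPM (-0.29, SE 0.11, adjusted p = 0.0619 with edgeR). These members were lower in every null round spermatid library, so that 5 of 10 members had no overlap, against 29.7% of all genes. Gopc stood at -0.73 (SE 0.29, adjusted p = 0.0816 with edgeR) and was called without null spermatocyte replicate 1 (-0.97, adjusted p = 0.0261 with edgeR), when 20.3% of all genes were. With the outliers added back neither Spag4 (adjusted p = 0.0588 with edgeR) nor Hook1 (adjusted p = 0.0993 with edgeR) was called, while 2275 genes of the whole table were. Sertoli markers were positive in 6 of 6 cases between the null fractions (median 1.51), with 3 called higher, and their part in these values was not tested. Sun5, at 0.25 (SE 0.21, adjusted p = 0.447 with edgeR), was not called.

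**Figure D2:**
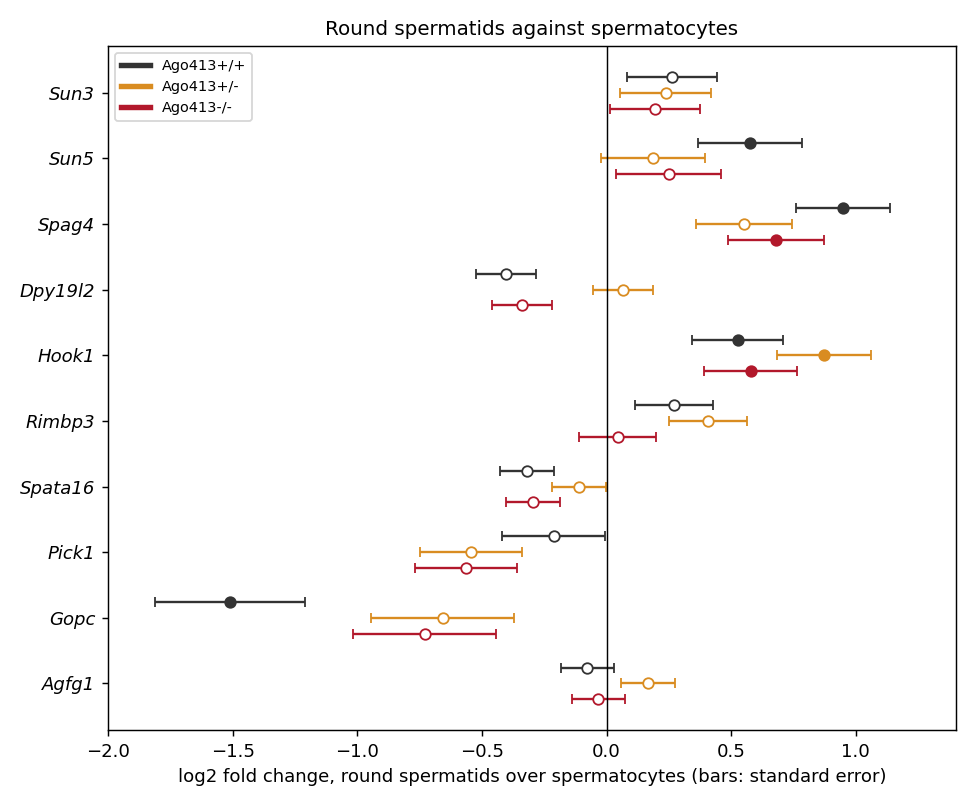
Log2 fold change of each member in round spermatids over spermatocytes, with its standard error as a bar, in Ago413+/+, Ago413+/- and Ago413-/- libraries; filled points are called by edgeR. Hook1 is called in all 3 genotypes, Spag4 in Ago413+/+ and Ago413-/-, and Sun5 and Gopc in Ago413+/+ only.

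Whether the fractions differed by another amount in another genotype was tested as the difference between the genotype effects in the 2 fractions. No member, and no gene, was called for the null (5.95% of genes, and 0 members, had an unadjusted p under 0.05) or for the heterozygote (7.72% of genes and 1 member), and DESeq2 called no gene in either. The largest member values were those of Gopc, whose null effect was 0.78 higher (SE 0.41, adjusted p = 0.807 with edgeR) and whose heterozygous effect was 0.85 higher (SE 0.41, adjusted p = 0.637 with edgeR) in round spermatids than in spermatocytes. The member with the unadjusted p under 0.05 was Dpy19l2, at 0.47 for the heterozygote (SE 0.17, adjusted p = 0.637 with edgeR). Sun5 and Gopc were called between the fractions in the wild type alone, but this test did not show their change to differ between genotypes.

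The second comparison asks whether the genes changed in Ago413-/- spermatocytes. With edgeR, 0 of 10 members were called against wild-type spermatocytes, as were 0.0411% of the 19450 genes tested. At an unadjusted p under 0.05 stood 4 members, against 30.4% of all genes, so the members were near the background of this comparison. DESeq2 called 2 members, Sun5 and Gopc, against 15% of all genes. The members' median log2 fold change was 0.14, and that of all genes tested -0.03.

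Of the nuclear envelope genes, Sun5 had 110.0, 99.1 and 109.6 CPM in null spermatocytes, where wild-type replicates 1, 2 and 4 had 49.4 to 54.2 CPM and wild-type replicate 5 had 102 CPM. This single wild-type library was inside the null range. The log2 fold change was 0.74 (SE 0.24, adjusted p = 0.078 with edgeR), and 1.08 without wild-type replicate 5 (adjusted p = 0.00264 with edgeR). For Spag4 every null library (288, 245 and 246 CPM) lay above every wild-type library, with the nearest, replicate 5, at 238 CPM. Its log2 fold change was 0.59 (SE 0.21, adjusted p = 0.0918 with edgeR). Sun3, another SUN domain gene of spermatids, had 87.2, 67.7 and 73.9 CPM in null spermatocytes against 53.2, 48.6, 50.4 and 76.5 CPM in wild-type replicates 1, 2, 4 and 5. Again replicate 5 was the only wild-type library among the null values, and the log2 fold change was 0.43 (SE 0.22, adjusted p = 0.203 with edgeR). Dpy19l2 was at 267 to 339.6 CPM in null and 278 to 328 CPM in wild-type spermatocytes, a log2 fold change of 0.01 (SE 0.13).

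Of the manchette genes, Hook1 had 569, 422 and 427 CPM in null spermatocytes, all above the wild-type libraries, whose highest was replicate 5 at 399.6 CPM. The log2 fold change was 0.49 (SE 0.19, adjusted p = 0.108 with edgeR). Spag4 and Hook1 were thus the 2 members without overlap, both higher, where 13.2% of all genes tested were higher without overlap. Rimbp3 overlapped, with a log2 fold change of 0.08 (SE 0.18).

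Of the acrosome genes, Gopc had 11.9, 25.6 and 18.7 CPM in null spermatocytes against 43.0, 40.2, 45.4 and 23.96 CPM in wild-type replicates 1, 2, 4 and 5. The groups overlapped only through replicate 5, and the log2 fold change of Gopc was -1.01 (SE 0.31, adjusted p = 0.0706 with edgeR). Spata16 (-0.04, SE 0.13), Pick1 (0.19, SE 0.25) and Agfg1 (0.03, SE 0.13) overlapped between null and wild-type spermatocytes.

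**Figure D3:**
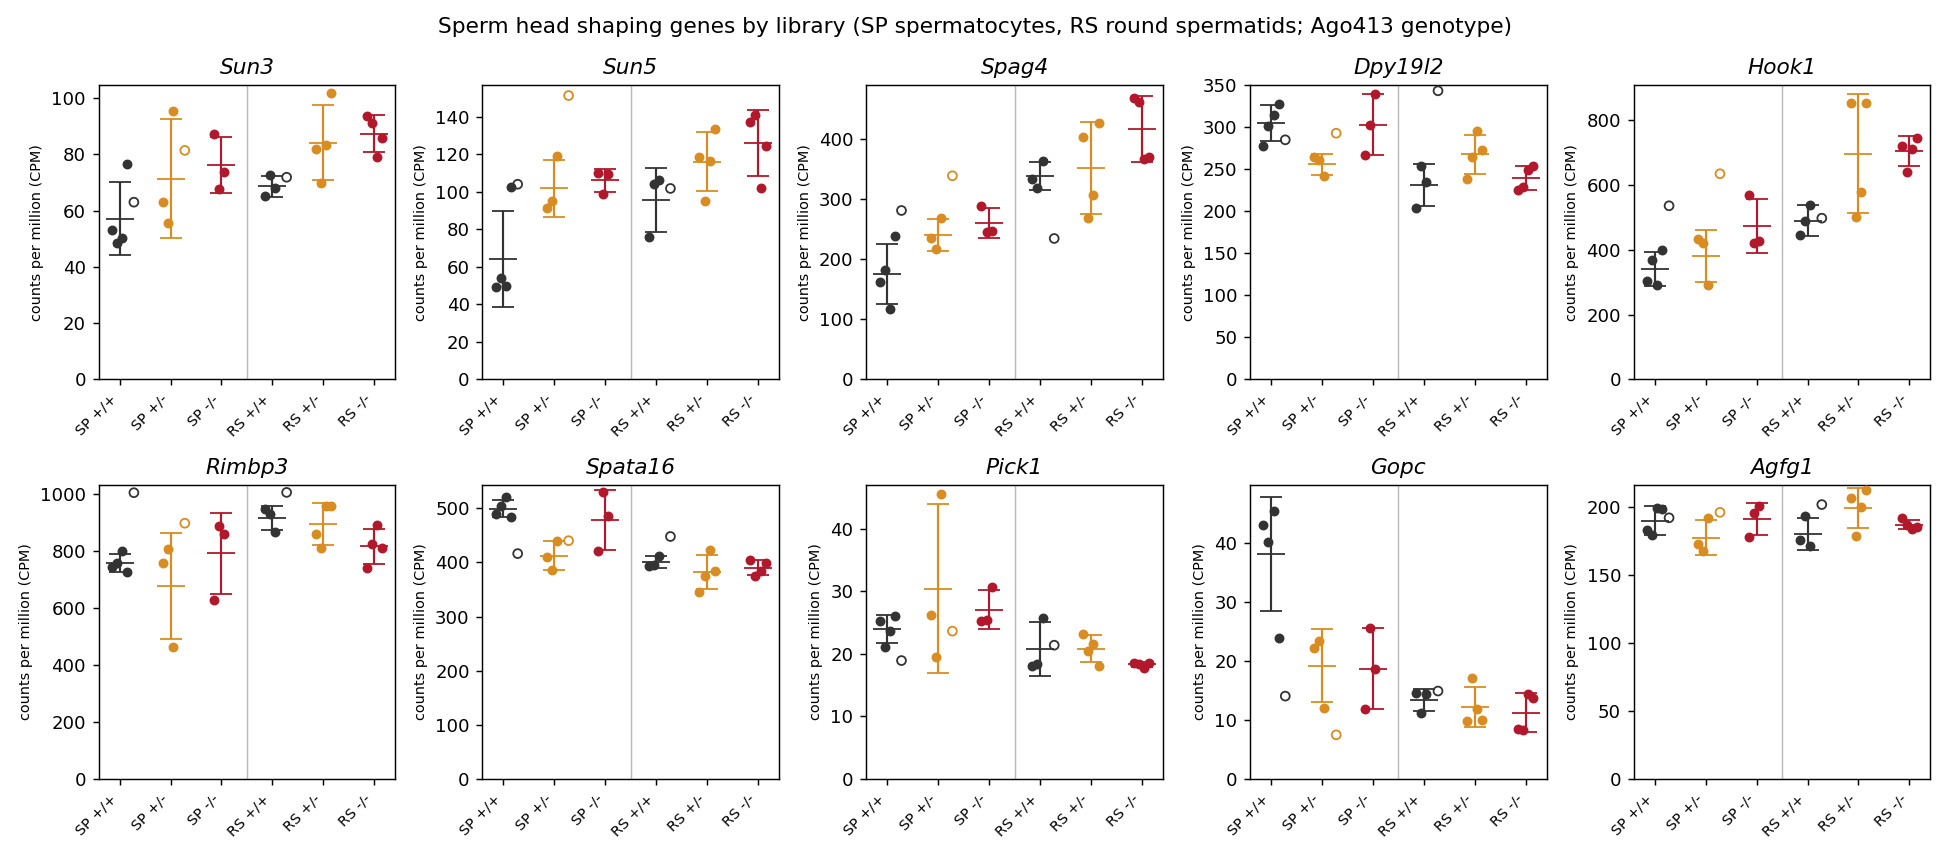
CPM of each member in every library by group (SP, spermatocytes; RS, round spermatids); filled points are libraries compared, with mean and SD as bars, and open points are the libraries called outliers by the labels. In wild-type spermatocytes replicate 5 lies within the null range for Sun3, Sun5 and Gopc, and the open point of replicate 3 does so for Sun5, Spag4, Hook1 and Gopc.

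The count of members called in null spermatocytes turned on wild-type replicate 5. Without it 5 members were called, Sun3, Sun5, Spag4 and Hook1 higher and Gopc lower (adjusted p = 0.00264 to 0.0493 with edgeR), and so were 23.6% of all genes tested. With no filter on low counts 3 members were called (7.61% of all genes), and with the replicate number as a block 1 was, Sun5 (3.53%). Without null replicate 1 the log2 fold changes were smaller, at 0.30 for Hook1, 0.29 for Sun3, 0.69 for Sun5, 0.48 for Spag4 and -0.80 for Gopc, and with the outliers added back they were 0.38 for Hook1, 0.61 for Sun5, 0.46 for Spag4 and -0.76 for Gopc, with none called. Sun3 was at 0.45 with the outliers added back. Column names in the labels carry a number, called the library number here, and what it stands for is not stated. The libraries were divided at 60, a cut chosen here that the labels do not give. Wild-type replicates 1, 2 and 4 and null replicate 1 lay at or under 60, and wild-type replicate 5 and null replicates 2 and 3 above. Up to 60, Sun5 was at 51.2 CPM on average in 3 wild-type libraries and at 110.0 CPM in the only null library. Above 60, it was at 102 CPM in the only wild-type library compared and at 99.1 and 109.6 CPM in the null libraries. Gopc was at 42.9 against 11.9 CPM up to 60, and at 23.96 against 25.6 and 18.7 CPM above. Hook1 was at 321 against 569 CPM up to 60, and at 399.6 against 422 and 427 CPM above. Sun3 was at 50.7 against 87.2 CPM up to 60, but at 76.5 CPM in the wild-type library against 67.7 and 73.9 CPM in the null libraries above. The left-out wild-type replicate 3 also has a number above 60, and had 63.0 CPM of Sun3, 104 CPM of Sun5, 281 CPM of Spag4, 536 CPM of Hook1 and 14.1 CPM of Gopc. Its markers lay outside the range of the wild-type spermatocyte libraries compared. It had 15455 CPM of elongating spermatid markers (against 3722 to 8802 CPM) and 535 CPM of spermatocyte markers (against 832 to 1815 CPM). With this division as a term in the fit, the log2 fold changes were 0.39 for Sun3, 0.62 for Sun5, 0.52 for Spag4, 0.50 for Hook1 and -0.99 for Gopc, and none was called (adjusted p = 0.182 to 0.351 with edgeR).

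Markers of cell stages were also compared between the genotypes in spermatocytes, and none was called. Summed round spermatid markers stood at 1669, 1465 and 1647 CPM in null spermatocytes and at 792, 892 and 809 CPM in wild-type replicates 1, 2 and 4, with replicate 5 at 1430 CPM. All 8 of these markers had a positive null log2 fold change (median 0.70), and none was called. Between the null fractions 6 of 8 were positive (median 0.0975), also with none called. The authors report Acrv1, which is on this list, as upregulated in null spermatocytes. The list is thus not independent of the genotype. Summed spermatocyte markers stood at 540 to 830 CPM in null and 832 to 1815 CPM in wild-type spermatocytes, with 1 of 8 positive and a median log2 fold change of -1.01, and the lowest wild-type library was again replicate 5. Elongating spermatid markers overlapped, at 4005 to 12955 CPM against 3722 to 8802 CPM. Spermatogonia markers were positive in 5 of 6 cases (median 0.48) and Sertoli markers in 0 of 6 (median -0.71), with none called. This comparison and that of the wild-type fractions share the wild-type spermatocyte libraries. The part of the stage makeup of the fractions in these values was not tested.

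**Figure D4:**
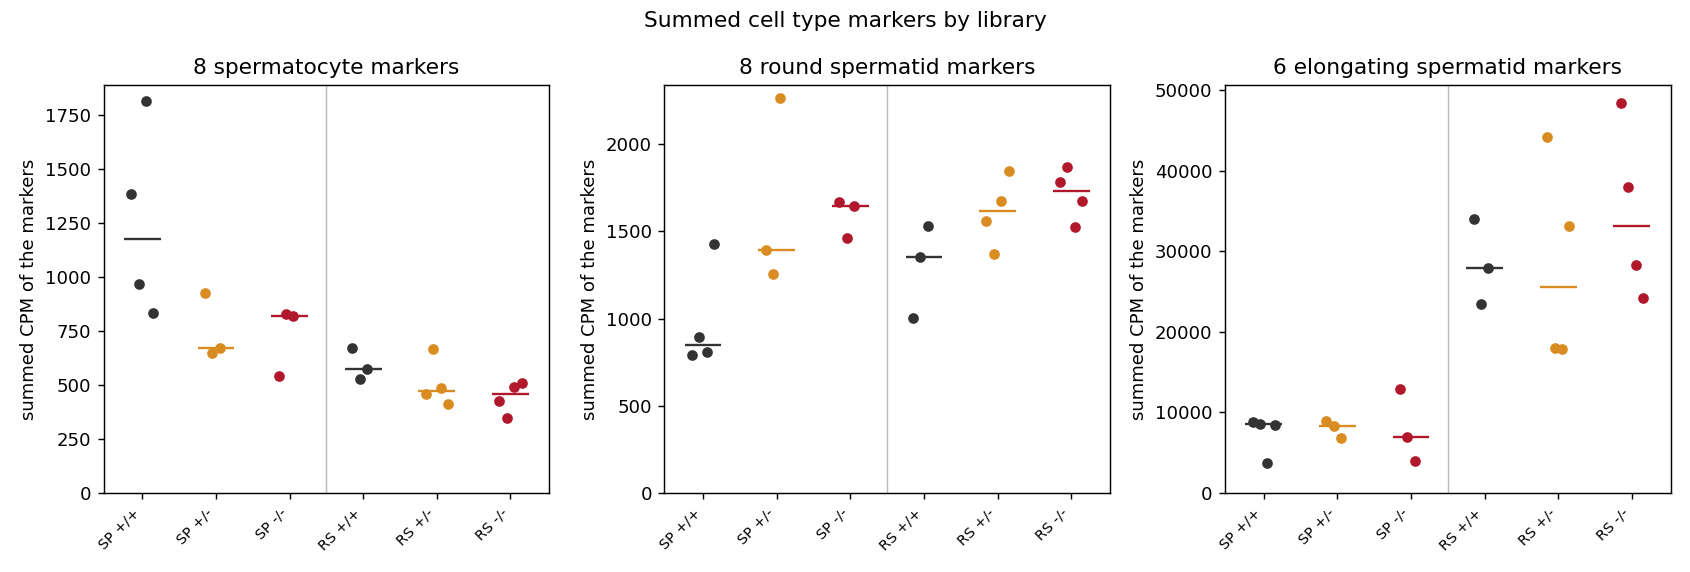
Summed CPM of 8 spermatocyte, 8 round spermatid and 6 elongating spermatid markers in each library compared, by group, with the group median as a line. In spermatocytes the null libraries lie at 1465 to 1669 CPM of round spermatid markers, and 3 of 4 wild-type libraries at 792 to 892 CPM.

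In heterozygous spermatocytes 0 members were called (0.0257% of all genes) with edgeR and 0 with DESeq2 (5.22% of all genes), and 3 had an unadjusted p under 0.05, against 24.6% of all genes. Sun5 had 91.5, 94.9 and 119 CPM (log2 fold change 0.71, SE 0.24, adjusted p = 0.132 with edgeR), Spag4 had 235, 216 and 268 CPM (0.50, SE 0.21, adjusted p = 0.172 with edgeR) and Gopc had 22.2, 23.4 and 12.1 CPM (-0.94, SE 0.31, adjusted p = 0.128 with edgeR). Gopc, Dpy19l2 and Spata16 were lower in every heterozygous than in every wild-type library, where 11.2% of all genes were lower without overlap. Without wild-type replicate 5, Sun5, Spag4 and Gopc were called (1.05, 0.69 and -1.10), as were 15.5% of all genes, and with no filter on low counts 2 members were called (4.3%). Round spermatid markers summed to 1255 to 2266 CPM in these libraries, with 8 of 8 positive (median 0.73). Spermatocyte markers summed to 646 to 926 CPM, with 0 of 8 positive (median -0.92). Spermatogonia markers summed to 61.0 to 83.8 CPM against 33.0 to 43.4 CPM in the wild type, with 6 of 6 positive (median 0.87) and 1 called higher. Leydig markers summed to 6.03 to 22.8 CPM against 3.25 to 10.1 CPM, with 5 of 5 positive (median 1.18). The part of these markers in the members' values was not tested. The heterozygous and null comparisons share their wild-type libraries. Set directly against each other, null and heterozygous spermatocytes differed in 0 members with edgeR (0.00514% of genes were called) or DESeq2 (0.0206% of genes), and no member had an unadjusted p under 0.05 (3.74% of genes did). The member log2 fold changes ran from -0.19 for Pick1 (SE 0.27) to 0.29 for Hook1 (SE 0.20). Without heterozygous replicate 2 the lowest member value was -0.43.

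In Ago413-/- round spermatids 0 members were called against the wild type, as were 0.0518% of the 19310 genes tested. DESeq2 called none of them either, and 3.32% of all genes. An unadjusted p under 0.05 was found for 3 members, all higher, against 8.01% of all genes that were higher and 19.3% in either direction. The largest was Hook1, with 722, 641, 712 and 745 CPM in null and 445, 488 and 538 CPM in wild-type round spermatids, without overlap (log2 fold change 0.50, SE 0.16, adjusted p = 0.134 with edgeR). Sun3 had 93.5, 91.1, 78.9 and 85.7 CPM against 65.3, 72.7 and 67.9 CPM, also without overlap (0.32, SE 0.12, adjusted p = 0.187 with edgeR). Sun5 had 137, 141, 102 and 125 CPM against 75.8, 104 and 106 CPM and overlapped through null replicate 3 (0.37, SE 0.15, adjusted p = 0.201 with edgeR), and without wild-type replicate 1 its log2 fold change was 0.23. Spag4 was higher in every null than in every wild-type library, at 366 to 468 CPM against 318 to 363 CPM (0.27, SE 0.14, adjusted p = 0.32 with edgeR). Together 3 members, Hook1, Sun3 and Spag4, were higher without overlap, where 9.09% of all genes were.

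The other members of null round spermatids overlapped with the wild type. Gopc had 8.54, 8.39, 14.5 and 13.7 CPM against 14.6, 11.2 and 14.4 CPM, a log2 fold change of -0.26 (SE 0.26), and of -0.13 without null replicate 1 or 2. Rimbp3 (-0.19, SE 0.12), Pick1 (-0.20, SE 0.15), Spata16 (-0.06, SE 0.12), Dpy19l2 (0.03, SE 0.13) and Agfg1 (0.03, SE 0.10) had adjusted p-values of 0.41 or more with edgeR. Leaving out any single library brought no member of this comparison to a call. Round spermatid markers summed to 1528 to 1872 CPM in null and 1007 to 1532 CPM in wild-type round spermatids, and all 8 had a positive log2 fold change (median 0.37), with none called. Spermatocyte markers summed to 347 to 509 CPM in null and 529 to 672 CPM in wild-type round spermatids, without overlap, with 2 of 8 positive (median -0.36) and none called. Elongating spermatid markers overlapped, at 24209 to 48396 CPM against 23517 to 33965 CPM, and all 6 were positive (median 0.23) with none called. The part of these markers in the members' values was not tested.

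By library number, Sun5 in round spermatids stood at 75.8 and 104 CPM in wild-type and 137 and 141 CPM in null libraries up to 60, and at 106 CPM against 102 and 125 CPM above 60. Spag4 stood at 332 and 318 CPM against 468 and 460.4 CPM up to 60, and at 363 CPM against 366 and 370.1 CPM above. Hook1 stood at 445 and 488 CPM against 722 and 641 CPM up to 60, and at 538 CPM against 712 and 745 CPM above. Both null libraries of Hook1 lay above the wild type on either side, while above 60 the only wild-type library of Sun5 lay between the null ones. With this division as a term, the log2 fold changes were 0.45 for Hook1, 0.36 for Sun5 and 0.26 for Spag4 (adjusted p = 0.171 to 0.377 with edgeR).

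In heterozygous round spermatids 0 members were called (0.0207% of all genes) with edgeR and 0 with DESeq2 (0.0363% of all genes), and 2 had an unadjusted p under 0.05, against 8.88% of all genes. They were Hook1, with 853, 503, 579 and 853 CPM (0.51, SE 0.16, adjusted p = 0.551 with edgeR), and Sun3, with 81.9, 69.8, 83.3 and 102 CPM (0.30, SE 0.12, adjusted p = 0.551 with edgeR). The Hook1 libraries were split, replicates 1 and 4 lying far above the wild type, replicate 3 just above it and replicate 2 within it. Round spermatid markers summed to 1368 to 1849 CPM here against 1007 to 1532 CPM in the wild type, with 8 of 8 positive (median 0.35) and none called, and their part in these values was not tested. No member was called between null and heterozygous round spermatids by edgeR (0.00518% of genes were) or DESeq2 (0.0829% of genes), or had an unadjusted p under 0.05 (7.67% of genes did), and the log2 fold changes ran from -0.22 for Pick1 (SE 0.14) to 0.21 for Spag4 (SE 0.13).

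**Figure D5:**
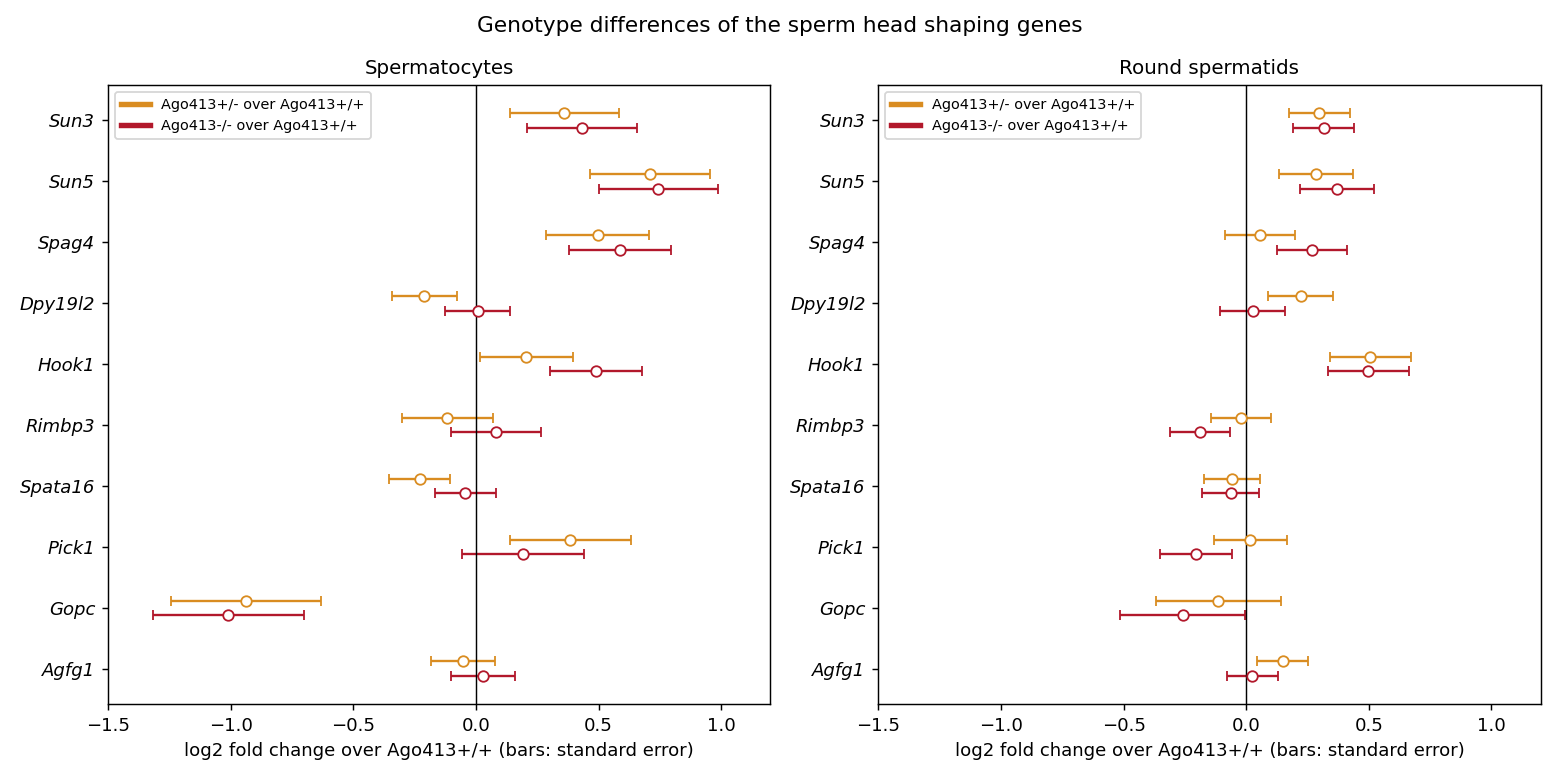
Log2 fold change over Ago413+/+ of each member in Ago413+/- and Ago413-/- libraries, with its standard error as a bar, in spermatocytes and in round spermatids; open points mark that none is called by edgeR. Sun5 (0.74) and Gopc (-1.01) are the farthest from 0 in null spermatocytes, Hook1 (0.50) in null round spermatids.

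Other genes of the same structures were read from 3 lists. Between the wild-type fractions, 3 of 14 tested nuclear envelope partners were called, all higher in round spermatids, against 12.7% of all genes called higher. They were Syne3, a KASH partner of SUN proteins, at 9.22 ± 1.61 CPM (SD, n = 3) against 3.64 ± 1.74 CPM (SD, n = 4) (log2 fold change 1.37, SE 0.37, adjusted p = 0.0087 with edgeR), the lamin gene Lmnb2 at 199 against 125 CPM (0.67, SE 0.16, adjusted p = 0.00468 with edgeR) and Spata46 at 228 against 146 CPM (0.64, SE 0.21, adjusted p = 0.0285 with edgeR). The more widely expressed SUN genes Sun1 (0.08, SE 0.15) and Sun2 (-0.43, SE 0.29) were not called, at 96.8 and 14.9 CPM in wild-type round spermatids. The list's median log2 fold change was 0.20.

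Of 19 manchette partners, 1 was called higher and 4 lower in wild-type round spermatids, against 12.7% and 11.4% of all genes, with a list median of -0.08. Odf1, an outer dense fiber gene of the sperm tail, stood at 2220 against 750 CPM (log2 fold change 1.57, SE 0.28, adjusted p = 0.000711 with edgeR). Iqcg (98 against 189 CPM, -0.95, SE 0.16), Spef2 (37.1 against 70.4 CPM, -0.93, SE 0.19) and the intraflagellar transport gene Ift20 (36.6 against 68.6 CPM, -0.91, SE 0.20) led those lower. Of 14 acrosome partners, 2 were called higher and 3 lower, against the same shares of all genes, with a list median of -0.26. The actin-like genes Actl9 (641 against 269 CPM, 1.25, SE 0.26) and Actl7a (505 against 241 CPM, 1.06, SE 0.18), both of the space under the acrosome, were higher. The lower genes were Vps54 (-0.90, SE 0.33) and Tmf1 (-0.65, SE 0.18), both of Golgi trafficking, and Ccdc62 (-0.65, SE 0.16).

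Between the heterozygous fractions 1 nuclear envelope, 4 manchette and 2 acrosome partners were called, against 8.89% of all genes, and between the null fractions 1, 3 and 5, against 17.1% of all genes. Syne3 was higher in heterozygous (1.34, SE 0.38) and null (1.79, SE 0.38) round spermatids, the only nuclear envelope partner called in either. Odf1 was higher in both (1.23 and 1.62), Iqcg was lower in both (-0.52 and -0.70), and Rnf19a (0.52) and Ift20 (-0.85) were called in the heterozygote and Spef2 (-0.87) in the null. Of the acrosome partners, Actl9 (1.07 and 1.45) and the autophagy gene Atg7 (0.65 and 0.56) were higher in both, and Actl7a (0.73), Ccdc62 (-0.71) and Tmf1 (-0.54) were called in the null.

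Between genotypes, 0 genes of these lists were called in any of the 6 comparisons with edgeR. In null spermatocytes 6 of 14 nuclear envelope partners, 2 of 19 manchette partners and 3 of 14 acrosome partners had an unadjusted p under 0.05, against 30.4% of all genes, and DESeq2 called 3, 2 and 1, against 15% of all genes. The manchette list's smallest p was that of Clip1, a microtubule plus-end protein, at 330 ± 18.5 CPM (SD, n = 3) in null and 180 ± 27.3 CPM (SD, n = 4) in wild-type spermatocytes, without overlap (log2 fold change 0.89, SE 0.15, adjusted p = 0.0599 with edgeR). Ift20 stood at 37.2 against 68.6 CPM (-0.86, SE 0.24, adjusted p = 0.0618 with edgeR) and Lmnb2 at 209 against 125 CPM (0.76, SE 0.19, adjusted p = 0.0599 with edgeR). The nuclear membrane gene Nrm stood at 102 against 61.8 CPM (0.73, SE 0.20, adjusted p = 0.0626 with edgeR). Actl7a (0.52, adjusted p = 0.0852 with edgeR) and Spaca1 (0.68, adjusted p = 0.147 with edgeR), a gene of the acrosomal membrane that is also among the round spermatid markers, had the smallest p-values of the acrosome list. Of the SUN genes outside the 10, Sun1 was at 95.2 against 91.4 CPM (0.08, SE 0.17) and Sun2 at 11.5 against 20.1 CPM (-0.78, SE 0.33, adjusted p = 0.132 with edgeR). In null round spermatids the counts at an unadjusted p under 0.05 were 3 of 14, 2 of 19 and 1 of 14, against 19.3% of all genes. Clip1 stood at 312 against 216 CPM (0.51, SE 0.21, adjusted p = 0.202 with edgeR). The nuclear envelope list had a median of 0.23, against 0.03 for all genes. Emd, which encodes emerin of the inner nuclear membrane, stood at 17.4 against 13.4 CPM (0.34, SE 0.15, adjusted p = 0.219 with edgeR). Ccdc155, a KASH gene of meiotic telomere attachment, stood at 104 against 126 CPM (-0.30, SE 0.10, adjusted p = 0.133 with edgeR) and Cep131 at 64.1 against 85.5 CPM (-0.44, SE 0.14, adjusted p = 0.128 with edgeR). Sun1 was at 114 against 96.8 CPM (0.21, SE 0.11) and Sun2 at 12.7 against 14.9 CPM (-0.25, SE 0.23). Of the acrosome list, Spaca1 stood at 318 against 242 CPM (0.37, SE 0.17, adjusted p = 0.246 with edgeR) and Zpbp2 at 305 against 354 CPM (-0.24, SE 0.12, adjusted p = 0.267 with edgeR).

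In heterozygous libraries Clip1 had log2 fold changes of 0.69 in spermatocytes (adjusted p = 0.124 with edgeR) and 0.59 in round spermatids (adjusted p = 0.551 with edgeR). The other genes with the smallest p-values in heterozygous spermatocytes were Lmnb2 (0.84, SE 0.19), Nrm (0.66, SE 0.20), Odf1 (0.48, SE 0.24), Spaca1 (0.97, SE 0.30) and Actl7a (0.56, SE 0.18), all with adjusted p-values of 0.124 or more with edgeR. In heterozygous round spermatids they were Lmna (-0.29, SE 0.13), Sun1 (0.23, SE 0.11), Spef2 (0.59, SE 0.22), Tmf1 (0.49, SE 0.21) and Spaca1 (0.36, SE 0.17), with adjusted p-values of 0.551 or more. Sun1 was at 0.10 in heterozygous spermatocytes, and Sun2 at -0.32 there and at 0.06 in round spermatids. Between null and heterozygous spermatocytes Lmnb1 (-0.37), Sun2 (-0.46), Ift20 (-0.54), Cep131 (-0.34), Tmf1 (0.24) and Ccdc62 (0.25) led their lists, each with an adjusted p of 0.974 with edgeR. Between null and heterozygous round spermatids Lmnb1 (-0.43), Sun2 (-0.31), Cep131 (-0.36), Dlec1 (-0.35), Vps54 (-0.44) and Ccdc62 (-0.31) did, with adjusted p-values of 0.631 or more with edgeR. Sun1 was at -0.02 and -0.03 in these comparisons.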

How the data were processed

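The authors trimmed directional poly(A) reads with Trim Galore, mapped them with STAR (mm10) and deposited raw counts per gene for 24 libraries. The strand column and annotation release are not given in the sources used here. Identifiers were matched to GENCODE M21 (55536 of 55536). The 10 members and the lists of other genes were chosen with earlier results of these data known.

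Genes with at least 10 counts in 3 libraries were fitted with edgeR 4.0.16 (R 4.3.3, TMM scaling, quasi-likelihood test). Genotypes were compared within a fraction, and fractions and differences between fractions in 1 fit of 21 libraries. Calls needed a Benjamini-Hochberg adjusted p under 0.05 and an absolute log2 fold change over 0.5, and SE is the log2 fold change over the root of the F statistic. The scripts were tested on simulated data. Partners named were those called, up to 3 per direction, otherwise the 2 smallest p-values. No 2 libraries of a group agreed within sampling noise (37 pairs). Intervals for counts of 0 cover counting error only. Alternatives were DESeq2 1.42.0, other scaling, no count filter, fewer groups, replicate blocks, a library number term, added outliers and left-out libraries.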

Additional observations from a re-analysis of the deposited data

Results flagged for a closer look

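Of 30 groups of 4 libraries checked for a library far from the rest, 2 stood out, near the share of about 1 in 20 that chance gives. Both came from the same library, wild-type spermatocyte replicate 5, and are not independent. It had 76.5 CPM of Sun3, with the other 3 libraries at 48.6 to 53.2 CPM (the gap was 0.836 of the range), and 102 CPM of Sun5, with the others at 49.4 to 54.2 CPM (0.91 of the range).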

How the results depend on the processing

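Members called in null against wild-type spermatocytes (0) became 2 with DESeq2, 3 with no count filter and 0 to 5 leaving out 1 library each. In heterozygous spermatocytes (0) they became 2 with no filter and 0 to 3. Between fractions they became 2 in the wild type (4) with DESeq2 size factors (24.6% of all genes) and 2 to 4 with 1 library left out (16.7% to 31.6%), 1 to 3 in the heterozygote (1, with 962 to 2329 genes called) and 0 to 3 in the null (2, with 1248 to 4129 genes called). With the labelled outliers added back, all 3 fraction counts were 0, with 0 genes called in the wild type, 0 in the heterozygote and 2275 in the null. The cause was not tested.

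Signs turned for these members, none of which was called. In null spermatocytes the log2 fold changes were Dpy19l2 -0.08, Rimbp3 -0.01 and Agfg1 -0.02 with a library number term, Spata16 0.0028 with the compared groups only and 0.05 with outliers added. Outliers also gave Agfg1 0.01 (heterozygous spermatocytes), Dpy19l2 -0.13 and Agfg1 -0.01 (null round spermatids) and Pick1 -0.02 (heterozygous round spermatids), where no filter gave Rimbp3 0.01. With 1 library left out, null spermatocytes ran from -0.07 to 0.07 for Dpy19l2, -0.0032 to 0.19 for Rimbp3 and -0.11 to 0.03 for Spata16, and heterozygous ones from -0.27 to 0.09 for Rimbp3, -0.03 to 0.62 for Pick1 and -0.12 to 0.02 for Agfg1. Null round spermatids ran from -0.06 to 0.12 for Dpy19l2 and -0.01 to 0.10 for Agfg1, and heterozygous ones from -0.04 to 0.16 for Spag4, -0.07 to 0.01 for Rimbp3 and -0.10 to 0.19 for Pick1. Between null fractions Rimbp3 ran from -0.10 to 0.13 and Agfg1 from -0.08 to 0.0015.

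Genes called over the whole table in null against wild-type spermatocytes went from 8 to 4526 without wild-type replicate 5, 2913 with DESeq2, 1303 with the compared groups only, 2623 with no filter and 4 with the library number term. In heterozygous spermatocytes 5 became 2966 without that library, 1015 with DESeq2 and 1481 with no filter, and in null round spermatids 10 became 642 and 238, 20 with DESeq2 size factors and 26 with outliers added. Heterozygous round spermatids went from 4 to 7 with DESeq2 and 10 with no filter, null against heterozygous spermatocytes from 1 to 4 and 30, and null against heterozygous round spermatids from 1 to 16 and 11. Between fractions the wild-type 4934 and heterozygous 1814 became 0 and the null 3498 became 2275 with outliers added. The self-test recovered 48 of 100 genes changed by a log2 fold change of 1 in null spermatocytes.

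Label numbers were not taken as pairs, since 4 of 17 same-number pairs of a fraction correlated above 0.1 (-0.242 to 0.168) and 4 of 9 across fractions (-0.179 to 0.307). Consecutive library numbers across fractions did so in 8 of 9 pairs (-0.14 to 0.307). Whether such pairs came from the same mice is not stated, and the main fits treated all libraries as independent. With the replicate block 1 member, Sun5 (0.98, adjusted p = 0.0423 with edgeR), and 687 genes were called in null spermatocytes, and Dpy19l2 was at -0.02 in null round spermatids. Between fractions the block by label number called 4, 1 and 3 members in wild-type, heterozygous and null libraries (29.5%, 5.22% and 20.3% of all genes), and that by consecutive library number 4, 1 and 2 (24.2%, 5.83% and 15.8%). In the heterozygote they left 1066 and 1189 genes called.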
